A study of Homo sapiens with 9 samples.

Results

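NFE2L2, the gene of the transcription factor NRF2, was followed with 9 genes of the antioxidant response across a ZMAT2 knockdown in Huh7 cells, an established human hepatocellular carcinoma line. The 9 are NQO1, GCLC, GCLM, TXNRD1, SRXN1, HMOX1, SLC7A11, GPX2 and SOD3. The 10 genes are the rows of the deposited table that carry these names, out of 27421 genes. All 10 reached at least 1 FPKM in at least 3 libraries, the limit for testing that 11245 genes passed. FPKM divides the fragments of a gene by its transcript length and by library depth, so levels of different genes can be compared per length. The 9 libraries form 3 groups of 3, labelled control, shzmat2-1 and shzmat2-2, the last 2 being the arms in which ZMAT2, a zinc finger protein of the spliceosome, was targeted. The study asked about the part of ZMAT2 in splicing in liver cancer cells, while the table gives 1 level per gene and no isoforms. All groups share the cell line and a poly(A), strand-specific library. The labels name no hairpin sequence, control vector, time point or clone, and do not say whether replicates were separate cultures. The p-values therefore measure only the spread between these libraries, which may be technical.

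NRF2 is a basic leucine zipper factor that is made and destroyed continuously. KEAP1 holds it and hands it to a CUL3 ubiquitin ligase, and when oxidants or electrophiles modify cysteines of KEAP1, NRF2 escapes, pairs with a small MAF protein and binds antioxidant response elements near its target genes. The targets supply glutathione, reduce thioredoxin, break down heme and detoxify quinones, and in liver cancer the pathway can be switched on by mutation of NFE2L2 or KEAP1. Because NRF2 is mainly controlled as a protein, the level of NFE2L2 mRNA does not report its activity.

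The libraries held 18430000 to 23680000 fragments, and for a 1 kb transcript 3 fragments amount to 0.127 to 0.163 FPKM. ZMAT2 itself was at 37.5, 32.8 and 39.2 FPKM in control replicates 1, 2 and 3, at 15.2, 12.8 and 13.2 in shzmat2-1 and at 22.1, 20.3 and 20.8 in shzmat2-2, so the 3 groups did not overlap. ZMAT2 thus stood at 37.6% of the control mean in shzmat2-1 (log2 fold change -1.35, limma adjusted p = 0.028). In shzmat2-2 it stood at 57.7% (-0.76, limma adjusted p = 0.11), which did not pass. Fragments of the 13 mitochondrially encoded genes made up 7.86%, 43.2% and 8.28% of the library in control replicates 1, 2 and 3, 8.25%, 16.4% and 7.70% in those of shzmat2-1 and 27.0%, 14.5% and 16.6% in those of shzmat2-2. Control replicate 2 stands apart by this measure, and the estimates of genes that were low in it fall when it is left out. The control libraries left are then at 7.86% and 8.28%, below every shzmat2-2 library. Mitochondrial share and arm cannot be told apart in estimates of shzmat2-2 against control without that library. All 9 liver markers examined, ALB, AFP and HNF4A among them, reached the limit for testing, with a summed level of 3270 to 5850 FPKM in control, 4758 to 5769 in shzmat2-1 and 4147 to 4830 in shzmat2-2. Of markers of other cells, 2 of 6 fibroblast genes (COL1A2 and PDGFRB, at most 2.31 FPKM) reached that limit. CD14 among 5 leukocyte genes in the table (at most 8.74 FPKM) and PECAM1 among 5 endothelial genes in the table (at most 1.70 FPKM) also did. PTPRC, CDH5 and VWF stayed near 0.

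Promoter sequences were compared because NRF2 recognises a short element in them. RefSeq sequences on GRCh38.p14 covered 8 of the 10 genes in 10 windows, each of 300 bases from 250 before to 50 after a transcript start. HMOX1 and SLC7A11 had no entry. The motif TGACNNNGC, the core of the antioxidant response element, was searched on both strands. It was present in 3 of the 8 genes (GCLM, TXNRD1 and GPX2), beside 16.1% of 27305 genes in the RefSeq table, and in 4 of the 10 windows, beside 13.3% of 35116 windows. The stricter form TGACTCAGC, of the same length and 1 of the sequences that fit that motif, was present in none of the 10 windows and in 0.561% of all windows. The windows shown are GPX2 and SOD3, the genes that stood apart in shzmat2-2, then GCLM and TXNRD1 as other genes with a match and NQO1 as a classical target, each read 5′ to 3′ on the strand of the gene with the match in capitals.
GPX2, chr14:64942696-64942995, minus strand: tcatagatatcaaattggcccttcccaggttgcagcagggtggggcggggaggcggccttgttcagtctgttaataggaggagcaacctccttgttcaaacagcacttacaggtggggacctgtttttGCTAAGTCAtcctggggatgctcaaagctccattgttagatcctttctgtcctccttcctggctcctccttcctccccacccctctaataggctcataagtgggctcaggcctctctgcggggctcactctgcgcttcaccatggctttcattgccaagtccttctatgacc
SOD3, chr4:24795323-24795622, plus strand: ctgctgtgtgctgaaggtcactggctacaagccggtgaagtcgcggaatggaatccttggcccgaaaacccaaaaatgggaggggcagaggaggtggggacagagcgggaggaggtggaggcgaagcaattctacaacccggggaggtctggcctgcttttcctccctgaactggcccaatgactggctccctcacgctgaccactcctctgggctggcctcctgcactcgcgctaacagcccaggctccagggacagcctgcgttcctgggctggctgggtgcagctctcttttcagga
GCLM, chr1:93909381-93909680, minus strand: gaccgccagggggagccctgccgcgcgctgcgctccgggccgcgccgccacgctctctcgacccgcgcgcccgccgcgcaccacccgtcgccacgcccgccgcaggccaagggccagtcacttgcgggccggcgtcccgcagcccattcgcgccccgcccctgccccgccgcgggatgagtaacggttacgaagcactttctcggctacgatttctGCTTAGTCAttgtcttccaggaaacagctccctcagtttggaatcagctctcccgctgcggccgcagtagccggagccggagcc
TXNRD1, chr12:104286782-104287081, plus strand: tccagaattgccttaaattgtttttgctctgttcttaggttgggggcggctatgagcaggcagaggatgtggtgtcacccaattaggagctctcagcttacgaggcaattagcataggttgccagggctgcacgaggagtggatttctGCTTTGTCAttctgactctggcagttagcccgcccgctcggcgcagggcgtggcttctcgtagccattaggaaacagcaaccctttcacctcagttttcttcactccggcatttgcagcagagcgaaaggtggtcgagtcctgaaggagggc
NQO1, chr16:69726511-69726810, minus strand: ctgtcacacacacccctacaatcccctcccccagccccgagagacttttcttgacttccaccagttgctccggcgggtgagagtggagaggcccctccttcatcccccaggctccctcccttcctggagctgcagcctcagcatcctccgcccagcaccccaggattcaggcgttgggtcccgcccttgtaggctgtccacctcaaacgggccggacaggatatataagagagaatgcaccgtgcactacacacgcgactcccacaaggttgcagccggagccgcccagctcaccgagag
Each capital run lies on the opposite strand to the gene and so shows the reverse complement of the motif. Counted from the transcript start, it begins at -122 in GPX2, where it reads TGACTTAGC from its own strand, at -34 in GCLM (TGACTAAGC) and at -102 in this TXNRD1 window (TGACAAAGC). Another TXNRD1 window, at chr12:104215529-104215828, held 2 matches, at -99 and -8. A match describes the letters only, and the absence of these letters from the SOD3 and NQO1 windows says nothing about elements elsewhere.

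SOD3 was the 1 gene of the 10 that passed the test, higher in shzmat2-2 and in the mean of both arms but not called in shzmat2-1. It encodes the secreted superoxide dismutase, which converts superoxide to hydrogen peroxide outside the cell. SOD3 (ENSG00000109610, chromosome 4, 24789912 to 24800842) was at 0.583, 1.34 and 1.06 FPKM in the control libraries, at 1.42, 1.64 and 1.89 in shzmat2-1 and at 4.48, 3.36 and 5.14 in shzmat2-2. The 3 groups did not overlap, shzmat2-2 was highest and control lowest. The arm with the higher SOD3, shzmat2-2, kept more ZMAT2 (57.7% of the control mean) than shzmat2-1 (37.6%). A relation between the 2 genes was not tested. In RNA from whole cultures, a change in the number of cells that express a gene and a change in RNA per cell cannot be told apart. Group means were 0.994 ± 0.384, 1.65 ± 0.234 and 4.32 ± 0.897 FPKM (SD, n = 3 each), so shzmat2-2 was at 435% and shzmat2-1 at 166% of the control mean. On the log2(FPKM + 1) scale used for all tests, which understates changes of low genes, SOD3 rose by 1.42 in shzmat2-2 (SE 0.19, 95% confidence interval 1.00 to 1.84, limma adjusted p = 0.014). The estimate in shzmat2-1 was 0.43 (SE 0.19, interval 0.00 to 0.85, limma adjusted p = 0.81) and did not pass. The mean of both arms was 0.92 above control (SE 0.16, limma adjusted p = 0.042), and this call was kept in 4 of 19 alternative analyses.

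The difference in SOD3 between the arms was 0.99 on the same scale (SE 0.19, unadjusted p = 0.00038), which limma's adjustment over all genes left at adjusted p = 0.66. SOD3 is the lowest of the 10 genes, with a mean above only 24.2% of the tested genes, and by exon length its values rest on about 25 to 240 fragments per library. Over 20 alternative analyses the SOD3 estimate in shzmat2-2 stayed between 1.26 and 2.06 and passed in 13. It missed the threshold when FPKM were rescaled to TPM, a fixed sum per library, (1.81, limma adjusted p = 0.48), in a fit on the 2 groups alone (adjusted p = 0.11), and without control replicate 1 (adjusted p = 0.062), control replicate 3 (adjusted p = 0.059) or shzmat2-2 replicate 1, 2 or 3 (adjusted p = 0.073, 0.057 and 0.092). With control replicate 2 left out it was 1.55 (limma adjusted p = 0.0052).

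**Figure D1:**
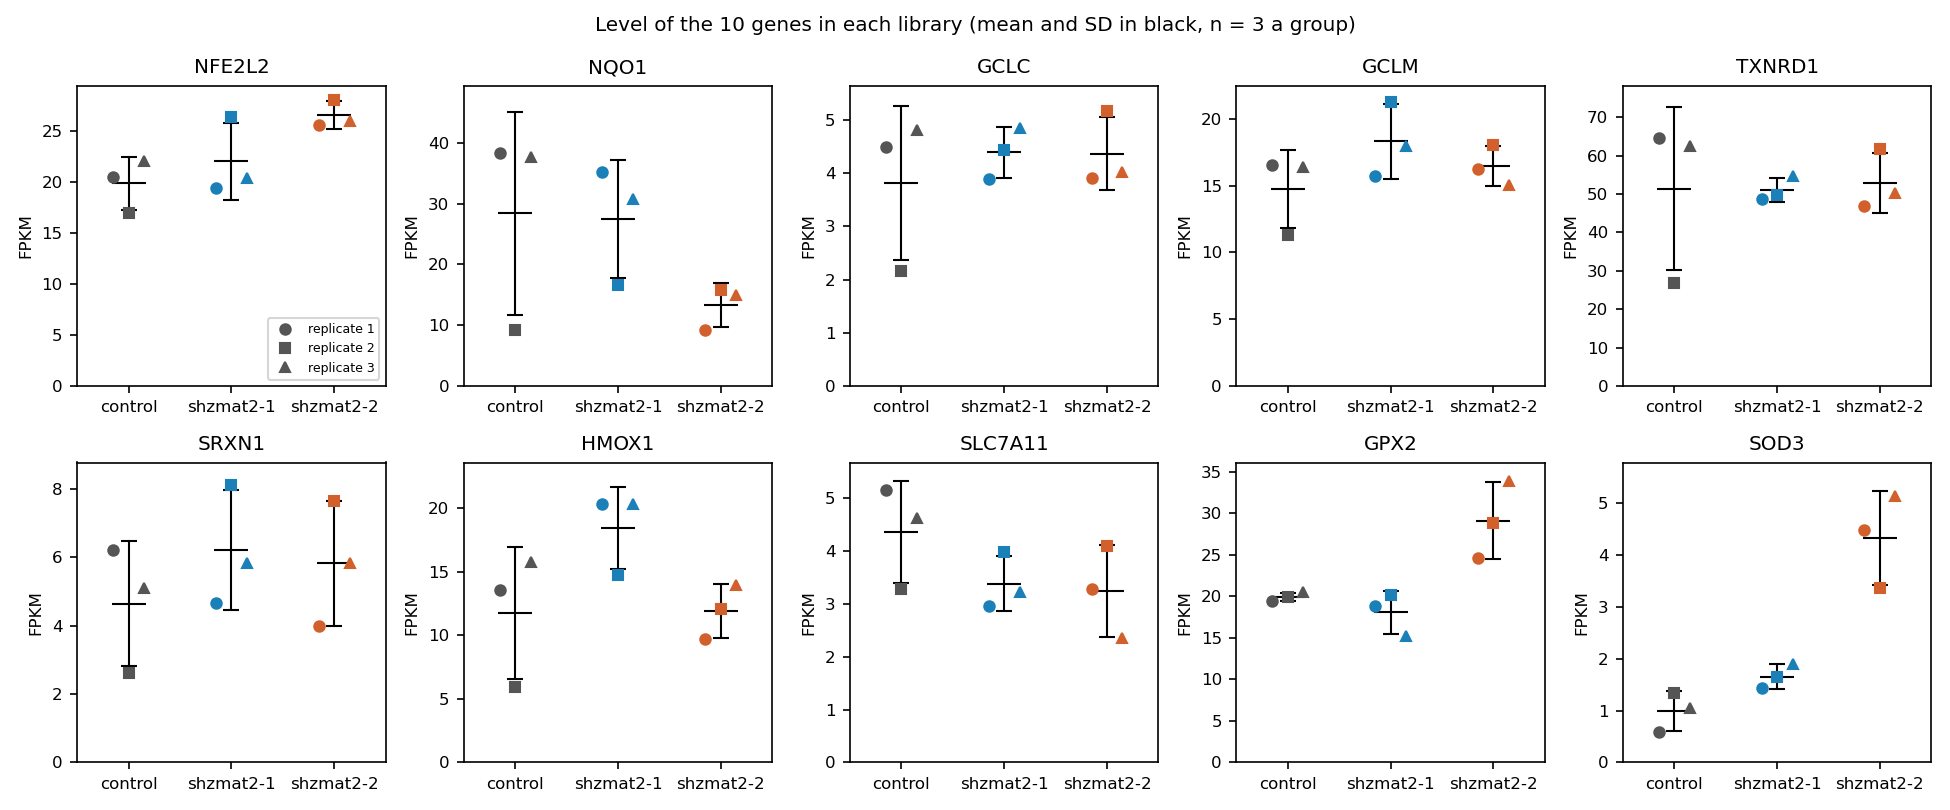
Level of each of the 10 genes (vertical axis, FPKM, from 0) in the 9 libraries by group, with replicates as symbols and the group mean and SD in black. SOD3 separates all 3 groups, GPX2 and NFE2L2 are above every control library in shzmat2-2, and control replicate 2 is the lowest control library for 8 of the 10 genes.

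GPX2 had the next clearest separation, in shzmat2-2 and not in shzmat2-1. It encodes a glutathione peroxidase of epithelial cells, a selenoprotein that reduces hydroperoxides with glutathione. GPX2 (ENSG00000176153, chromosome 14, 64939152 to 64942746) was at 19.5, 19.9 and 20.5 FPKM in control, 18.9, 20.2 and 15.2 in shzmat2-1 and 24.6, 28.8 and 33.9 in shzmat2-2. Every shzmat2-2 library was above all 6 others, and the other groups overlapped. The means were 20.0 ± 0.494, 18.1 ± 2.59 and 29.1 ± 4.64 FPKM (SD, n = 3 each). The log2 estimate was 0.51 in shzmat2-2 (SE 0.19, unadjusted p = 0.024, limma adjusted p = 0.55) and -0.14 in shzmat2-1 (SE 0.19, limma adjusted p = 0.81), so neither passed. The difference between the arms was 0.66 (unadjusted p = 0.0067, limma adjusted p = 0.66). GPX2 shares its locus with CHURC1 on the opposite strand, at 1.61 to 2.98 FPKM, and the sources used here do not say whether counting used the strand. The GPX2 levels and the capitals in its promoter window stand side by side, and no relation between them was tested.

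NFE2L2, the regulator itself, was at 20.5, 17.0 and 22.1 FPKM in control, 19.4, 26.3 and 20.4 in shzmat2-1 and 25.5, 28.1 and 26.0 in shzmat2-2. All shzmat2-2 libraries were above all control libraries, while shzmat2-1 overlapped both. Its mean was 19.8 ± 2.61, 22.0 ± 3.76 and 26.5 ± 1.35 FPKM (SD, n = 3 each). The log2 estimates were 0.14 in shzmat2-1 (SE 0.19, limma adjusted p = 0.82) and 0.41 in shzmat2-2 (SE 0.19, unadjusted p = 0.061, limma adjusted p = 0.76). The shzmat2-1 estimate of NFE2L2 was 0.04 when control replicate 2 was left out, 0.01 when shzmat2-1 replicate 2 was and -0.09 when both were. It ranged from -0.10 to 0.36 and was above 0 in 17 of 21 alternative analyses, so its sign depends on the analysis. In shzmat2-2 the NFE2L2 estimate was 0.30 without control replicate 2 and stayed above 0 in all 21 alternative analyses. NFE2L2 (ENSG00000116044, chromosome 2, 177218667 to 177392756) lies across AGPS, at 6.90 to 11.9 FPKM, and HNRNPA3, at 52.0 to 70.5 FPKM, both on the opposite strand, so its level is uncertain if counting ignored the strand. The highest library of NFE2L2 was 1.65 times the lowest, beside 1.88 (GCLM) to 8.81 times (SOD3) for the other 9 genes.

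NQO1 and HMOX1, the most used readouts of NRF2 activity, did not pass in either arm, and each was lower in all shzmat2-2 libraries than in all shzmat2-1 libraries. NQO1 reduces quinones by a pair of electrons, which avoids reactive semiquinones. NQO1 (ENSG00000181019, chromosome 16, 69706996 to 69726668) was at 38.3, 9.17 and 37.7 FPKM in control, 35.2, 16.5 and 30.7 in shzmat2-1 and 9.24, 15.7 and 14.96 in shzmat2-2. All shzmat2-2 libraries were below all shzmat2-1 libraries and below control replicates 1 and 3, but control replicate 2 was the lowest library of all. The means were 28.4 ± 16.6, 27.5 ± 9.75 and 13.3 ± 3.54 FPKM (SD, n = 3 each). The log2 estimate was -0.83 in shzmat2-2 (SE 0.50, limma adjusted p = 0.94) and 0.13 in shzmat2-1 (SE 0.50, limma adjusted p = 0.93). Without control replicate 2 the NQO1 estimate in shzmat2-2 was -1.48 (limma adjusted p = 0.051) and in shzmat2-1 -0.52 (adjusted p = 0.77). The NQO1 estimate in shzmat2-1 was above 0 in 14 of 21 alternative analyses, so its direction depends on the processing and not on that library alone.

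HMOX1 is heme oxygenase, which opens heme to biliverdin, iron and carbon monoxide, and the repressor BACH1 also acts on it. HMOX1 (ENSG00000100292, chromosome 22, 35380361 to 35394214) was at 13.6, 5.92 and 15.8 FPKM in control, 20.4, 14.7 and 20.3 in shzmat2-1 and 9.70, 12.1 and 13.99 in shzmat2-2. All shzmat2-1 libraries were above all shzmat2-2 libraries, and both arms overlapped control. The means were 11.8 ± 5.17, 18.5 ± 3.24 and 11.9 ± 2.15 FPKM (SD, n = 3 each). The log2 estimate was 0.69 in shzmat2-1 (SE 0.32, unadjusted p = 0.055, limma adjusted p = 0.81) and 0.10 in shzmat2-2 (SE 0.32, limma adjusted p = 1). Without control replicate 2 the HMOX1 estimates were 0.30 (limma adjusted p = 0.79) and -0.29 (limma adjusted p = 0.33). BACH1 mRNA did not pass either (-0.04 in shzmat2-1 and -0.03 in shzmat2-2, limma adjusted p = 0.95 and 1).

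The glutathione genes did not pass in either arm. GCLC and GCLM are the catalytic and the modifier subunit of glutamate-cysteine ligase, the rate-limiting step of glutathione synthesis, and SLC7A11 is the exchanger that imports cystine for it. GCLC (ENSG00000001084, chromosome 6, 53497341 to 53616970) was at 4.49, 2.16 and 4.81 FPKM in control, 3.89, 4.43 and 4.85 in shzmat2-1 and 3.91, 5.16 and 4.03 in shzmat2-2. GCLM (ENSG00000023909, chromosome 1, 93885199 to 93909456) was at 16.5, 11.3 and 16.4 FPKM in control, 15.7, 21.3 and 18.0 in shzmat2-1 and 16.2, 18.0 and 15.04 in shzmat2-2. For both subunits the groups overlapped and control replicate 2 was the lowest library. The GCLC estimates were 0.21 (limma adjusted p = 0.81) in shzmat2-1 and 0.20 (adjusted p = 1) in shzmat2-2, with 95% intervals of -0.32 to 0.74 and -0.33 to 0.73. Those of GCLM were 0.30 (limma adjusted p = 0.81) and 0.16 (adjusted p = 1), with intervals of -0.16 to 0.76 and -0.30 to 0.62. Without control replicate 2 the GCLC estimates changed sign, to -0.07 and -0.08, and those of GCLM were 0.14 and -0.00. SLC7A11 (ENSG00000151012, chromosome 4, 138164097 to 138242349) was at 5.15, 3.29 and 4.61 FPKM in control, 2.96, 3.97 and 3.21 in shzmat2-1 and 3.28, 4.10 and 2.34 in shzmat2-2. Its groups overlapped through control replicate 2, and its estimates were -0.28 (limma adjusted p = 0.81) and -0.34 (limma adjusted p = 0.94). With that library left out the SLC7A11 estimates were -0.43 (limma adjusted p = 0.54) and -0.49 (adjusted p = 0.14). SLC7A11 was the 1 gene of the 10 whose estimates were below 0 in both arms, and they stayed below 0 in all 20 alternative analyses of each arm.

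The thioredoxin genes showed no separation between groups. TXNRD1 is the cytosolic thioredoxin reductase, a selenoprotein, and SRXN1 is sulfiredoxin, which restores overoxidised peroxiredoxins. TXNRD1 (ENSG00000198431, chromosome 12, 104215779 to 104350307) was at 64.7, 26.9 and 62.6 FPKM in control, 48.6, 49.8 and 54.6 in shzmat2-1 and 46.8, 61.6 and 50.3 in shzmat2-2. It was the highest of the 10 genes, and all 6 knockdown libraries lay inside the range of the control. The TXNRD1 estimates were 0.09 (SE 0.32, limma adjusted p = 0.92) and 0.13 (SE 0.32, limma adjusted p = 1), and without control replicate 2 they were -0.31 (adjusted p = 0.63) and -0.27 (adjusted p = 0.26). SRXN1 (ENSG00000271303, chromosome 20, 646615 to 653200) was at 6.21, 2.63 and 5.10 FPKM in control, 4.66, 8.12 and 5.85 in shzmat2-1 and 4.00, 7.65 and 5.83 in shzmat2-2. Replicate 2 was the highest SRXN1 library in each arm and the lowest in control. The SRXN1 estimates were 0.38 (SE 0.30, limma adjusted p = 0.81) and 0.30 (SE 0.30, limma adjusted p = 1), and without control replicate 2 they were 0.09 and 0.01.

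By mean control level the order was TXNRD1 (51.4 ± 21.3 FPKM), NQO1, GPX2, NFE2L2, GCLM (14.7 ± 2.95), HMOX1, SRXN1 (4.64 ± 1.83), SLC7A11 (4.35 ± 0.961), GCLC (3.82 ± 1.45) and SOD3 (SD, n = 3 each). Among neighbours in this order, TXNRD1 was above NQO1, NFE2L2 above GCLM and GCLM above HMOX1 within every control library. HMOX1 was likewise above SRXN1 and GCLC above SOD3 in each. The remaining neighbours changed places between control libraries.

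**Figure D2:**
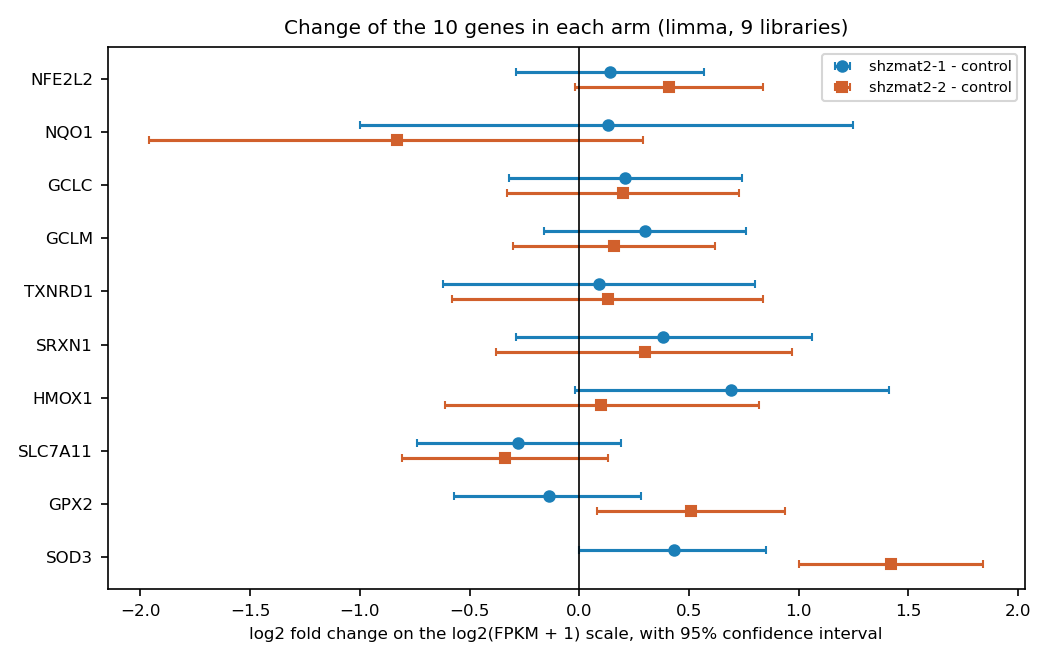
Estimated log2 fold change of each gene on the log2(FPKM + 1) scale (horizontal axis) in shzmat2-1 and shzmat2-2 against control, with 95% confidence intervals from limma on all 9 libraries. SOD3 in shzmat2-2 (1.42) lies farthest from 0, and NQO1 has the widest intervals (SE 0.50).

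Counted over the 10 genes, limma called 0 in shzmat2-1, where 0.0800% of the 11245 tested genes were called, and 1 (SOD3) in shzmat2-2, where 0.587% were called. It called 1 (SOD3) in the mean of both arms, where 0.542% were called, and 0 between the arms, where 0% were called. At an unadjusted p under 0.05 the counts were 1 in shzmat2-1 (SOD3, background 5.76%), 2 in shzmat2-2 (SOD3 and GPX2, background 7.00%), 1 in the mean of both arms (SOD3, background 6.93%) and 2 between the arms (SOD3 and GPX2, background 4.14%). The libraries did not overlap with control for 1 gene in shzmat2-1 (SOD3, background 10.9%) and for 3 genes in shzmat2-2 (SOD3, GPX2 and NFE2L2, background 13.4%), all higher. Between the arms 4 genes did not overlap, SOD3 and GPX2 higher and NQO1 and HMOX1 lower in shzmat2-2, where 14.9% of tested genes did not overlap. The arms share the 3 control libraries, so these counts are not independent of each other.

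Most of the 10 estimates were above 0, but so were those of other genes. In shzmat2-1, 8 of 10 were above 0 with a median of 0.17, beside 72.9% of all tested genes with a median of 0.16. In shzmat2-2, 8 of 10 were above 0 with a median of 0.18, beside 58.4% and a median of 0.05. Between the arms, 4 of 10 were higher in shzmat2-2, with a median of -0.04 beside -0.09 over all tested genes. The count in shzmat2-1 was 5 of 10 with median-of-ratios scaling, quantile normalization or scaling to genes that are not mitochondrially encoded. Beside it stand 50.6%, 49.7% and 45.1% of all tested genes, whose median moved by -0.15, -0.16 and -0.19. Scaled to TPM the count in shzmat2-1 was 9 of 10, beside 88.7% of all tested genes, whose median moved by 0.22. In shzmat2-2 the count was 8 of 10 under each scaling, beside 49.0% to 61.0% of all tested genes. Without control replicate 2 the counts were 5 of 10 in shzmat2-1 and 4 of 10 in shzmat2-2, beside 38.3% and 33.5% of all tested genes. The medians of all tested genes then moved by -0.21 and -0.20.

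NQO1, HMOX1 and TXNRD1 were lower, in each group, in the library whose mitochondrial share was highest than in the other 2 on average. In the library with the highest share of each group (control replicate 2, shzmat2-1 replicate 2 and shzmat2-2 replicate 1), NQO1 was 0.241, 0.501 and 0.602 times the mean of the other 2 libraries of the group. The ratios of HMOX1 were 0.403, 0.724 and 0.744, and those of TXNRD1 were 0.422, 0.965 and 0.837. These 3 of 10 genes were lower in all 3 such libraries, beside 52.8% of tested genes, and 0 of 10 were higher in all 3, beside 9.50%. SOD3 had ratios of 1.64, 0.991 and 1.05, and GPX2 of 0.996, 1.19 and 0.786. As a reference for the typical gene, the median-of-ratios factor was 0.643 in control replicate 2, beside 1.14 and 1.13 in control replicates 1 and 3. It was 1.03 in shzmat2-1 replicate 2, beside 1.09 and 1.12, and 0.891 in shzmat2-2 replicate 1, beside 1.06 and 1.03. The part of the mitochondrial share in the group differences was not tested beyond the fits that follow.

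**Figure D3:**
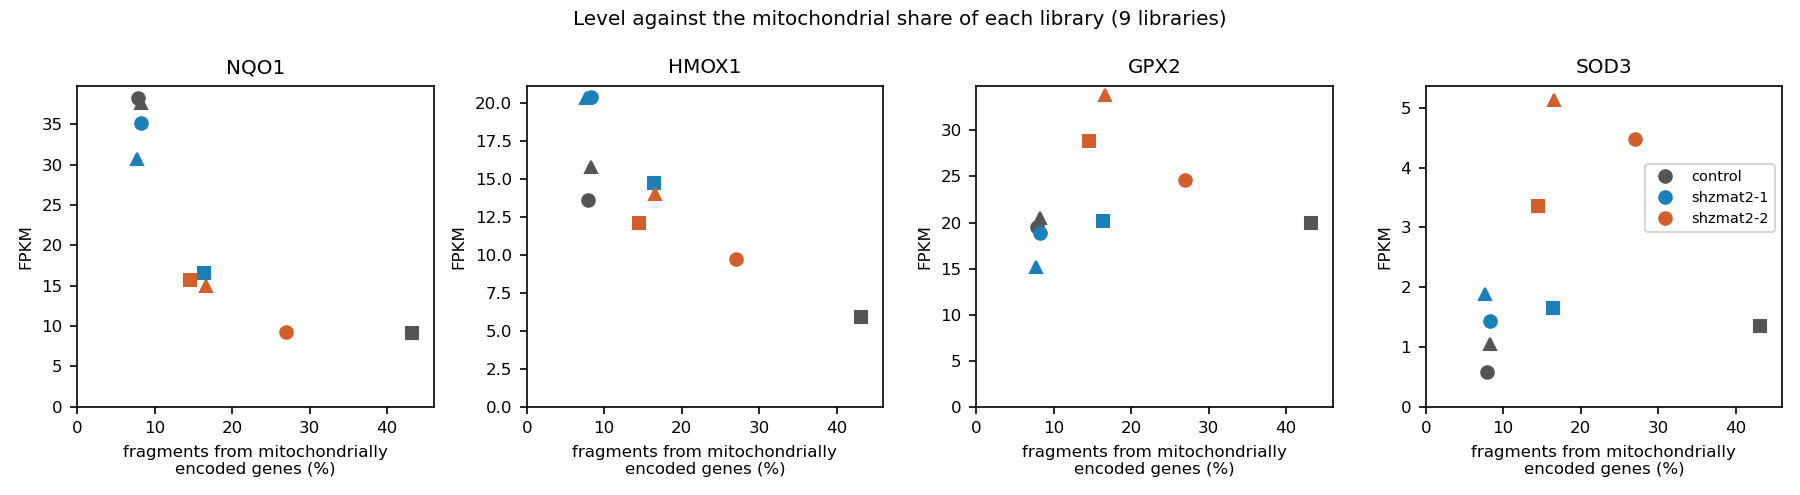
FPKM of NQO1, HMOX1, GPX2 and SOD3 (vertical axes, from 0) against the percent of fragments from mitochondrially encoded genes (horizontal axes) in the 9 libraries, with groups as colours and replicates 1, 2 and 3 as circles, squares and triangles. NQO1 is above 30 FPKM in the 4 libraries whose share was 7.70% to 8.28% and below 17 in the other 5, while GPX2 and SOD3 are highest in the shzmat2-2 libraries at shares of 14.5% to 27.0%.

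With the log2 level of the mitochondrially encoded genes as a covariate, SOD3 was 1.37 above control in shzmat2-2 (limma adjusted p = 0.00059), GPX2 0.51 (adjusted p = 0.046) and NQO1 -0.54 (adjusted p = 0.011). These are 3 of the 10 genes, and 9.84% of all tested genes were called in that fit. In shzmat2-1 the fit called HMOX1 alone (0.47, limma adjusted p = 0.046), beside 3.73% of tested genes. In the mean of both arms it called SOD3 (0.93, adjusted p = 0.0019), HMOX1 (0.37, adjusted p = 0.033) and NQO1 (-0.40, adjusted p = 0.019), beside 9.75%.

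Replicate 2 of control and replicate 2 of shzmat2-1 were then both left out, which leaves 2 libraries in each of those groups. The libraries left had mitochondrial shares of 7.70% to 8.28% in those groups and 14.5% to 27.0% in shzmat2-2. Mitochondrial share and arm cannot be told apart in comparisons that include shzmat2-2 in this fit. SOD3 was 1.55 above control in shzmat2-2 (limma adjusted p = 0.0004) and GPX2 0.51 (adjusted p = 0.03). NQO1 was at -1.48 (limma adjusted p = 0.0009) and SLC7A11 at -0.49 (adjusted p = 0.043). These 4 of 10 calls stand beside 30.2% of all tested genes. In the mean of both arms SOD3 (1.05, limma adjusted p = 0.0049) and NQO1 (-0.84, adjusted p = 0.028) were called, beside 4.10%. Between the arms 5 of 10 were called, SOD3 (0.99, limma adjusted p = 0.0018), GPX2 (0.74, adjusted p = 0.0043) and NFE2L2 (0.51, adjusted p = 0.021) higher in shzmat2-2 and NQO1 (-1.28, adjusted p = 0.0011) and HMOX1 (-0.74, adjusted p = 0.0039) lower, beside 42.3% of all tested genes. With that background the share of the 10 genes is close to that of any gene.

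Some of the 10 genes varied together across the 9 libraries, given here as Pearson's r of log2(FPKM + 1) with no test, since the points share groups, depth and mitochondrial share. GCLC and TXNRD1 had an r of 0.956, GCLM and SRXN1 of 0.883, NQO1 and HMOX1 of 0.790 and GPX2 and SOD3 of 0.749. NFE2L2 had an r of -0.266 with NQO1 and 0.681 with GPX2. For NQO1 1867 tested protein-coding genes with a symbol had an r of at least 0.9, PRCP (0.995) and PC, pyruvate carboxylase (0.994), the nearest, and for HMOX1 2562 genes did, with PMM2 (0.992) among the nearest. GPX2 had 8 such genes, led by MTIF3 (0.951) and IER3 (0.942), and SLC7A11 had 37, led by GRK3 (0.958) and TRIM2 (0.957). SOD3 had 40, led by MAF (0.987), which encodes a large MAF transcription factor, and UBE2Q1 (0.963). NFE2L2 had 256, led by TRIB1 and DBF4 (both 0.984).

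The wider pathway was described with 7 lists of 80 other genes, of which 78 were tested. 1 of 78 passed by limma, GSTM4, in shzmat2-2 (beside 0.587% of all tested genes) and in the mean of both arms (beside 0.542%). None passed in shzmat2-1 (beside 0.0800%) or between the arms (beside 0%). At an unadjusted p under 0.05, 6 were higher and 1 lower in shzmat2-1, beside 5.76% of all tested genes in either direction. In shzmat2-2, 3 were higher and 1 lower (beside 7.00%), and between the arms 1 was higher and 1 lower (beside 4.14%). The estimates were above 0 for 68 of 78 in shzmat2-1 (median 0.30) and for 28 of 78 in shzmat2-2 (median -0.12). Beside these stand 72.9% and 58.4% of all tested genes, with medians of 0.16 and 0.05. Without control replicate 2 the pathway estimates were above 0 for 29 of 78 in shzmat2-1 (median -0.06) and 15 of 78 in shzmat2-2 (median -0.38). The shares of all tested genes were then 38.3% and 33.5%, with medians of -0.05 and -0.15. With median-of-ratios scaling the counts were 55 and 23 of 78, beside 50.6% and 49.0% of all tested genes.

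**Figure D4:**
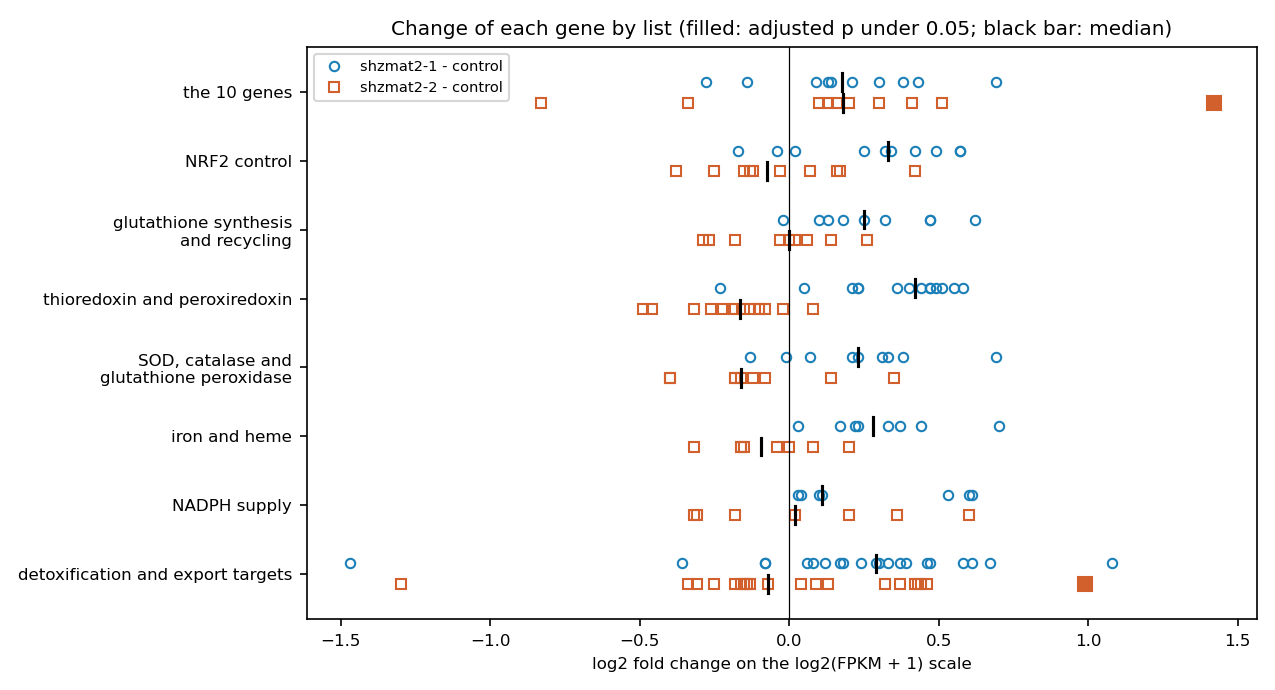
Log2 fold change on the log2(FPKM + 1) scale (horizontal axis) of every tested gene of the 10 and of the 7 pathway lists (rows) in shzmat2-1 and shzmat2-2 against control, with black bars for medians and filled symbols for a limma adjusted p under 0.05. The 2 filled symbols are SOD3 (1.42) and GSTM4 (0.99), both in shzmat2-2.

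GSTM4, a mu-class glutathione transferase, was at 3.04, 2.25 and 2.89 FPKM in control, 4.54, 4.86 and 4.61 in shzmat2-1 and 5.99, 6.25 and 6.91 in shzmat2-2, with no overlap between any groups. It rose by 0.99 in shzmat2-2 (SE 0.15, limma adjusted p = 0.023) and was 0.61 above control in shzmat2-1 (SE 0.15, limma adjusted p = 0.29). GSTM4 passed in 10 of 21 alternative analyses of shzmat2-2, and among the analyses where it did not pass were a replicate block (limma adjusted p = 0.057) and those without control replicate 1 (adjusted p = 0.076) or 3 (adjusted p = 0.1), shzmat2-1 replicate 1 (adjusted p = 0.06) or 3 (adjusted p = 0.074), or any single shzmat2-2 library (adjusted p = 0.12 to 0.15). The mu-class genes lie side by side and are similar in sequence, so the division of fragments among them is uncertain. GSTA1, an alpha-class transferase typical of hepatocytes, was at 44.9, 17.7 and 47.9 FPKM in control, 12.9, 8.31 and 14.2 in shzmat2-1 and 13.2, 11.6 and 14.7 in shzmat2-2. All 6 knockdown libraries were below all 3 controls, with estimates of -1.47 (limma adjusted p = 0.25) and -1.30 (adjusted p = 0.22) that did not pass. GSTA1 passed in 6 of 21 alternative analyses of each arm and 7 of 20 of the mean of both. Among them was the one without control replicate 2, the lowest control library, which gave -1.92 (limma adjusted p = 0.0099) and -1.75 (adjusted p = 0.0058). GSTA1 and its neighbour GSTA2 are also similar in sequence, which leaves the same uncertainty. Of the same list of detoxification and export genes, UGDH, which makes UDP-glucuronate, had estimates of 0.47 and 0.46 (limma adjusted p = 0.81 and 0.71), and 0.30 in each arm without control replicate 2. UGDH passed in 1 of 21 alternative analyses of shzmat2-2 (limma adjusted p = 0.031) and 0 of 21 of shzmat2-1.

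Among the 10 genes that control NRF2, 0 passed in either arm by limma, beside 0.0800% of all tested genes in shzmat2-1 and 0.587% in shzmat2-2. Under an unadjusted p of 0.05 there were 0 in either, beside 5.76% and 7.00%. KEAP1, its adaptor for destruction, was at 45.5, 16.9 and 44.4 FPKM in control, 49.97, 29.3 and 46.7 in shzmat2-1 and 22.1, 33.0 and 34.1 in shzmat2-2, with estimates of 0.32 and -0.15 (limma adjusted p = 0.81 and 1). The KEAP1 estimates with control replicate 2 left out were -0.13 and -0.61 (limma adjusted p = 0.98 and 0.16), so the sign in shzmat2-1 changed without that library. KEAP1 passed in 1 of 21 alternative analyses of shzmat2-2, the one without replicate 2 of control and of shzmat2-1 (-0.61, limma adjusted p = 0.026), where 30.2% of all tested genes passed. NFE2L1, a relative of NRF2, had 0.42 in each arm (limma adjusted p = 0.81 and 0.88). It passed in 1 of 21 alternative analyses of shzmat2-2 (limma adjusted p = 0.026) and 0 of 21 of shzmat2-1. SQSTM1, which can sequester KEAP1, had 0.34 and 0.17, and MAFG, a small MAF partner, 0.25 and 0.07 (limma adjusted p = 0.81 in shzmat2-1 and 1 in shzmat2-2 for both). With the same library left out, NFE2L1 was at 0.19 and 0.20, SQSTM1 at 0.04 and -0.14 and MAFG at -0.01 and -0.19. Of the 7 genes that supply NADPH, 0 passed, with 1 under an unadjusted p of 0.05 in shzmat2-1 and 0 in shzmat2-2, beside the same shares of all tested genes. PGD, an oxidative enzyme of the pentose phosphate pathway, had estimates of 0.61 and 0.36 (limma adjusted p = 0.81 and 1), and 0.34 and 0.09 without control replicate 2. PGD passed in 1 of 21 alternative analyses of each arm (limma adjusted p = 0.023 in shzmat2-1 and 0.011 in shzmat2-2).

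The other lists had 0 called genes in either arm, beside 0.0800% of all tested genes in shzmat2-1 and 0.587% in shzmat2-2. They also had 0 under an unadjusted p of 0.05, beside 5.76% and 7.00%. Over the 14 thioredoxin and peroxiredoxin genes the median was 0.42 in shzmat2-1 and -0.17 in shzmat2-2, with TXN2, the mitochondrial thioredoxin, at 0.51 and 0.08. Over 9 tested glutathione genes it was 0.25 and -0.00, with GSR, which regenerates glutathione, at 0.47 and 0.26 (limma adjusted p = 0.81 and 1). Over the 9 superoxide dismutase, catalase and glutathione peroxidase genes other than SOD3 and GPX2 it was 0.23 and -0.16. The intracellular dismutases SOD1 (0.21 and -0.12) and SOD2 (0.23 and -0.18) and catalase, CAT (0.38 and 0.35), did not pass (limma adjusted p = 0.81 in shzmat2-1 and 1 in shzmat2-2 for each). Over 8 iron and heme genes the median was 0.28 and -0.10. The ferritin subunits FTH1 (0.03 and -0.16) and FTL (0.37 and -0.16) and the iron exporter SLC40A1 (0.44 and 0.20) did not pass (limma adjusted p = 0.81 to 1). When control replicate 2 was left out, these medians in shzmat2-1 and shzmat2-2 were -0.11 and -0.63 for the thioredoxin list, -0.00 and -0.29 for glutathione, -0.02 and -0.31 for dismutases, catalase and peroxidases, and -0.07 and -0.41 for iron and heme. Each median above 0 in shzmat2-1 thus turned below 0 without that library, as did the median of all tested genes (0.16 with it and -0.05 without it). Of the genes just named, SOD2 was then at -0.13 and -0.54 and FTL at -0.04 and -0.57, while CAT was at 0.07 and 0.04 (limma adjusted p = 0.08 to 0.99 for these). CAT passed in 1 of 21 alternative analyses of shzmat2-2 (limma adjusted p = 0.042) and 0 of 21 of shzmat2-1.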

How the data were processed

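Poly(A) RNA of 9 Huh7 libraries in 3 groups of 3 was measured, per the labels' protocols. The deposited table gives FPKM, and the authors' formula for it is not stated. Per the submitters' processing notes, the tools were HISAT, featureCounts and DESeq2, with no versions given. Genome build, annotation and use of strand in counting are not given in the sources used here. Gene coordinates are copied from the deposited table. All 9 sample columns were used.

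Depth was chosen so that the most FPKM values of single-exon genes, among those under 30 fragments, equal a whole number of fragments to within 0.1. At the chosen depths 99.9% to 100% did, which is the criterion of the choice and not a separate check. Exon lengths behind fragment numbers came from GENCODE 29. The test required a minimum of 1 FPKM in 3 or more libraries and used limma 3.58.1 in R 4.3.3, with a variance trend, on log2(FPKM + 1) over all 9 libraries with the group as the only term. Calls required a Benjamini-Hochberg adjusted p (two-sided, over all 11245 tested genes) under 0.05. ZMAT2 was also compared by an exact permutation test. The procedure was tested on simulated data. The alternatives were another pseudocount, 2 other filters, 4 other scalings, a replicate block, a fit on only the groups compared, a mitochondrial covariate, no variance trend, leaving out each library, and leaving out replicate 2 of control and of shzmat2-1 together.

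The 10 genes, the pathway lists and the alternatives were chosen with earlier results of these data known. The text names all 10 genes, ZMAT2, the 3 genes of each list with the smallest adjusted p in the mean of both arms, called genes of the lists, and KEAP1, BACH1, FTH1 and FTL. Some genes that this rule takes are not reported here. SOD1 and SOD2 were named after their values were seen. Of the rule's genes, GLRX2 (mean of both arms 0.23), GSS (0.23), MSRA (0.22), TXNIP (-0.18), GPX8 (-0.14), GPX4 (0.22), FECH (0.12), TFRC (0.17) and ME1 (0.15) did not pass. Other steps used pandas 2.3.3 and numpy 2.4.6 in Python 3.11.15, and figures were drawn with matplotlib 3.10.9.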

Additional observations from a re-analysis of the deposited data

How the results depend on the processing

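Where a named gene was called, in the reported analysis or in an alternative, both estimates had the same sign. Of the 10 genes, the mitochondrial covariate called 1 in shzmat2-1, 3 in shzmat2-2 and 3 in the mean of both arms. Leaving out replicate 2 of control and of shzmat2-1 called 4 in shzmat2-2, 2 in the mean and 5 between the arms. The count in shzmat2-2 was 0 with a filter at 5 FPKM, where SOD3 was not tested, 0 when scaled to TPM and 0 on only the groups compared. The count in the mean was 0 with a pseudocount of 0.1, no filter, the 5 FPKM filter, each of the 4 other scalings and no variance trend. Without 1 library, it was 0 to 1 in shzmat2-2 and in the mean. Of the 78 pathway genes, median-of-ratios, quantile and non-mitochondrial scaling called 1 in shzmat2-1 and 2 in shzmat2-2 and the mean. Over all tested genes these scalings called 77, 79 and 55 in shzmat2-1 and 194, 195 and 161 in shzmat2-2. The covariate called 4, 10 and 10 pathway genes in shzmat2-1, shzmat2-2 and the mean (beside 3.73%, 9.84% and 9.75% of all tested genes). Leaving out both libraries called 1 pathway gene in shzmat2-1 (of 140 calls over all tested genes) and 35 in shzmat2-2 (beside 30.2%). It called 2 in the mean (4.10%) and 40 between the arms (42.3%). The 5 FPKM filter and scaling to TPM gave 0 in shzmat2-2 and the mean, and the groups alone 0 in shzmat2-2. Without 1 library, it was 0 to 1 in shzmat2-1, 0 to 2 in shzmat2-2 and 0 to 2 in the mean.

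ZMAT2 in shzmat2-1 was -1.17 scaled to TPM (limma adjusted p = 0.88), -1.35 on the groups alone (adjusted p = 0.29) and -1.42 to -1.30 without 1 library, where it missed the threshold in 8 of 9 fits. In shzmat2-2 it passed with the covariate (-0.74, adjusted p = 0.0017), without control replicate 2 (-0.84, adjusted p = 0.016) and without both libraries (-0.84), and ranged from -0.84 to -0.71 without 1 library. The mean was -0.98 scaled to TPM and -1.13 to -1.0 without 1 library. Between the arms ZMAT2 passed without both libraries (0.54). Comparing all 6 targeted libraries with control, the exact two-sided permutation p was 0.0119, which is the minimum over 84 possible assignments. Deviations from the group means of same-numbered libraries correlated from -0.76 to 0.78. In replicates 1, 2 and 3 the r was 0.61, 0.78 and 0.69 between control and shzmat2-1. It was -0.76, -0.22 and 0.61 between control and shzmat2-2, and -0.63, 0.18 and 0.63 between the arms. These values do not settle whether replicate numbers pair the libraries. A replicate block kept the counts of the 10 genes at 0, 1, 1 and 0 and lowered the pathway count in shzmat2-2 from 1 to 0 (GSTM4). Over all tested genes, calls ranged from 0 to 419 in shzmat2-1, 0 to 3396 in shzmat2-2 and 1 to 1096 in the mean. The cause of these changes was not tested.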
